A study of Homo sapiens with 6 samples.

Results

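The subject here is the pore-forming and auxiliary subunits of potassium, calcium and sodium channels in the human glioblastoma cell line U373MG. They were chosen by gene symbol: the families KCN, HCN, CACNA, CACNB, CACNG and SCN (pore and beta subunits) in the annotation of the array, which gave 125 of 18417 measured genes. The study exposed the cells for 24 hours to 3 tetrahydroisoquinoline alkaloids, and each compound had 1 array and 1 vehicle (DMSO) array of its own, so that 6 Human Gene 1.0 ST arrays in 3 independent experiments were available. The doses were 4.83 nM for ET-770, an ecteinascidin obtained from a tunicate, and 1.70 nM for ET-770-DR, which carries an added pyridinecarbonyl group. The sponge alkaloid renieramycin M, called RM here, was used at 3.10 nM. The control cells received DMSO at the matching concentration, all cells grew in DMEM with fetal bovine serum, penicillin and streptomycin, and the labels name no other agent. Values are RMA signals on a log2 scale, and the signals of a gene read by several probes were averaged.

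Ion channels are membrane pores that open to voltage, to calcium or to ligands. Potassium channels set the resting potential and end depolarization, voltage-gated calcium channels let in the calcium that acts as a messenger, and sodium channels carry the upstroke of the action potential. Pore subunits work with auxiliary subunits, which govern the traffic and gating of the pore. Glioma cells do not fire like neurons, but they are known for calcium-activated potassium channels, which have been linked to their migration and volume control.

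The label of the cells was checked with astroglial markers. In compound-treated and DMSO-treated cells VIM averaged 13.08 and 13.28, CD44 12.67 and 13.11, SOX2 11.05 and 11.85, and GFAP 7.09 and 7.34, while AQP4 stayed at 4.43 and 4.57. Of these 9 markers 5 fell in the response that the compounds shared (CD44, S100B, SOX2, SOX9 and FABP7) and none rose (limma), where 11.2% of all genes fell and 13.1% rose. Among all genes with a mean DMSO signal of 8 or more, where these 5 lay, 19.1% fell and 19.6% rose. A mean DMSO signal of 8 or more was found for 7 of the 9 astroglial markers, all but GFAP and AQP4. Among markers of other cell types, 1 of 8 neuronal genes (NEFL), 0 of 4 oligodendroglial, 1 of 5 microglial (CD68), 0 of 4 endothelial and 1 of 4 muscle genes (ACTA1) reached this level. Of these lists SYT1, NEFL and MBP fell, by 0.92, 0.80 and 0.43, CD68 rose by 0.58, and no endothelial or muscle gene passed the test or had an unadjusted p under 0.05. The part of these marker changes in the results below was not tested. In bulk RNA, fewer cells of a type and less RNA per cell cannot be told apart.

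Most channel subunits gave low signals. A mean DMSO signal of 8 or more was found for 10 of the 125 subunits, against 43.4% of all genes. The 10 were the potassium channel subunits KCNMA1, KCNE4, KCNJ2, KCNAB2, KCNK15, KCNN4 and KCNS3 and the calcium channel subunits CACNB3, CACNB1 and CACNG8. No sodium channel subunit was among them. Just inside this limit lay KCNS3 (8.02) and KCNN4 (8.07), and just outside lay KCNK12 (7.96) and KCNIP3 (7.95). Over all 125 subunits the mean DMSO signal ranged from 3.89 to 9.30, with a median of 6.14, where the median over all genes was 7.58. Probes differ in brightness, so that these signals do not rank the subunits by their number of transcripts.

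The vehicle-treated cells differed between experiments. For 120 of the 125 subunits the DMSO array of the ET-770 experiment gave the highest of the 3 DMSO signals, and for 95 the DMSO array of the RM experiment gave the lowest. Over all genes the ET-770 experiment was also highest, but the order of the lower arrays was the other way round: the median was 7.98 on the DMSO array of the ET-770 experiment, 7.28 on that of the ET-770-DR experiment and 7.40 on that of the RM experiment. Over all probes of the array the medians were 7.28, 6.68 and 6.63, in the same order as for most subunits. The DMSO signals of a subunit spanned more than 1 log2 unit for 50 of 125, and for 40.8% of all genes. After quantile normalization 8 subunits and 16.7% of all genes did so. KCNIP3, a calcium-binding partner of voltage-gated potassium channels, had the widest span, with 8.86, 8.21 and 6.77 in vehicle-treated cells of the ET-770, ET-770-DR and RM experiments, and CACNB1 had 9.04, 8.68 and 7.35. For this reason all changes below are taken within an experiment.

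In the response shared by the 3 compounds, 6 of the 125 subunits fell, 4 rose and 115 did not pass the test (limma with the experiment as a block, adjusted p under 0.05 over 18417 genes, n = 3 pairs). Of all genes 11.2% fell and 13.1% rose, and 24.3% passed in either direction, while 8% of the subunits did. Those that fell were the potassium channel subunits KCNMA1, KCNQ5, KCNAB2, KCNIP4 and KCNN4 and the sodium channel subunit SCN8A. Those that rose were the calcium channel subunits CACNB1 and CACNB3, the inward rectifier KCNJ2 and the cation channel subunit HCN3. At an unadjusted p under 0.05 there were 15 of the 125 subunits and 6223 of the 18417 genes. Among the 10 subunits with a mean DMSO signal of 8 or more, 3 fell and 3 rose, where 38.7% of all genes past the same limit passed in either direction (19.1% fell and 19.6% rose). Among the 115 dimmer subunits 3 fell and 1 rose, where 13.2% of all genes below the limit passed (5.12% fell and 8.08% rose). The limit uses the same DMSO arrays as the change, for the subunits and for all genes alike. The test treats the compounds as replicates of each other, so that differences between them count as spread.

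**Figure D1:**
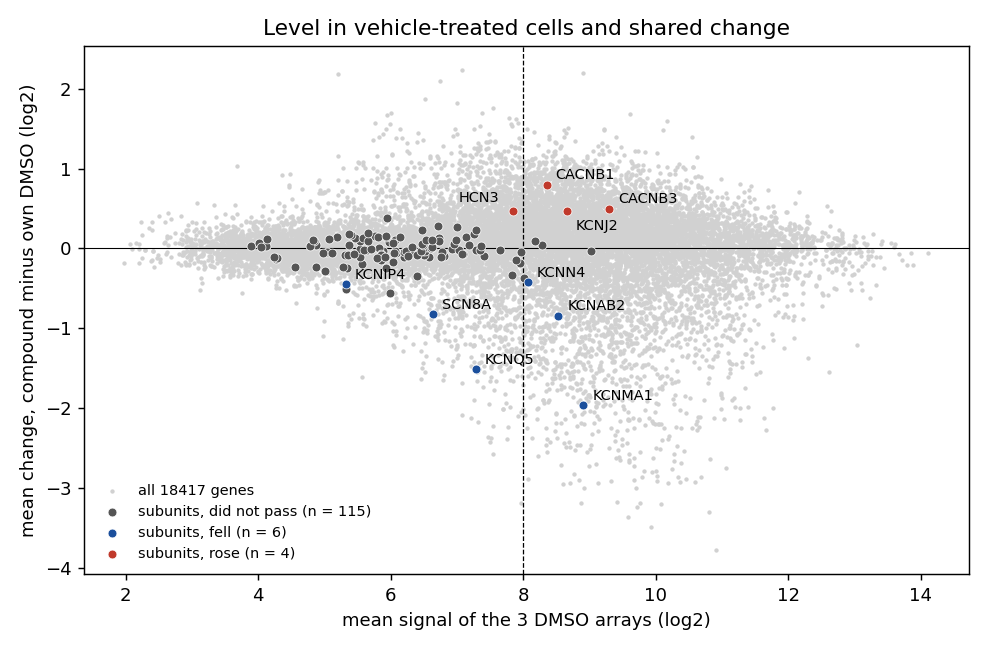
Mean signal of the 3 DMSO arrays (x axis, log2) against the mean change over the 3 experiments, compound minus own DMSO (y axis, log2), for all 18417 genes in grey and the 125 channel subunits in dark grey, blue (6 that fell) and red (4 that rose). The dashed line marks a signal of 8, to the right of which 10 subunits lie, and KCNMA1 is the lowest subunit at -1.96.

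KCNMA1, the pore of the large-conductance (BK) potassium channel that opens to calcium and voltage, showed the largest change of the 125 subunits. Its signals with ET-770, ET-770-DR and RM were 7.15, 5.95 and 7.74, against 9.07, 8.35 and 9.31 in the DMSO cells of the same experiments. All compound arrays lay below all DMSO arrays. This corresponded to 0.265-fold, 0.190-fold and 0.339-fold of DMSO. Averaged over the experiments, the gene fell by 1.96 on the log2 scale (moderated standard error 0.16, limma adjusted p = 4.3e-05 over 3 pairs). Its beta subunit KCNMB4, which tunes the calcium response of the BK channel in neurons, changed by -0.34 (adjusted p = 0.19), with 8.03, 7.01 and 7.45 in compound-treated cells and 8.37, 7.76 and 7.37 in DMSO cells, and the signs of its changes differed between experiments. None of the 4 KCNMB genes passed the test in limma, and none had an unadjusted p under 0.05.

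KCNQ5, a pore subunit of the slow M-type potassium current, was the other subunit whose compound arrays all lay below the DMSO arrays. This held for 2 of the 125 subunits and for 5.34% of all genes. The opposite order, all compound arrays above all DMSO arrays, was found for 0 subunits and for 3.62% of all genes. For the rest of the subunits that passed, the groups overlapped across experiments, while each compound array lay on the same side of its own DMSO array. These orders use the signals as deposited, whose level differs between experiments. After quantile normalization the compound arrays of KCNMA1, KCNQ5, KCNAB2, SCN8A and KCNN4 all lay below the DMSO arrays. Those of HCN3 all lay above them (8.47, 8.24 and 8.20 against 8.12, 7.80 and 7.61). The other subunits that passed still overlapped. Some that did not pass, such as KCNK3, separated, and the share over all genes was not counted. As deposited, the signals of KCNQ5 were 5.80, 5.87 and 5.66 with ET-770, ET-770-DR and RM, against 7.70, 7.35 and 6.80 in DMSO cells. In these signals the compound-treated cells lay close together (5.78 ± 0.11, SD, n = 3), while the DMSO cells were spread more widely (7.28 ± 0.46). This contrast compares experiments whose array levels differ, and it was lost after quantile normalization. The compound arrays were then at 5.36, 6.17 and 5.83, and the DMSO arrays spanned 0.61 log2 units. In the signals as deposited KCNQ5 stood at 0.266-fold, 0.360-fold and 0.456-fold of DMSO. Averaged over the experiments it fell by 1.51 (standard error 0.16, adjusted p = 0.00016). The other measured members of its family, KCNQ1 and KCNQ3, had mean changes of 0.02 and -0.03.

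The smaller conductance channel KCNN4, which calcium opens through calmodulin and which is known from glioma cells, was at 8.03, 7.29 and 7.61 with the compounds and at 8.60, 7.58 and 8.03 with DMSO. Each compound array lay below its own DMSO array, although the groups overlapped in the signals as deposited. It fell by 0.43 (standard error 0.12, adjusted p = 0.034), a call that was lost without the ET-770 experiment (-0.35, adjusted p = 0.43). Its relatives KCNN1 and KCNN3, at mean DMSO signals of 6.05 and 6.30, changed by -0.06 and -0.03.

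Among auxiliary subunits of potassium channels, KCNAB2 fell. This cytosolic beta subunit, which has the fold of an aldo-keto reductase, had signals of 8.18, 7.55 and 7.35 with the compounds, against 9.04, 8.56 and 7.998 with DMSO. These were 0.550-fold, 0.498-fold and 0.638-fold of DMSO, every compound array lying below its own DMSO array. On average it fell by 0.84 (standard error 0.13, adjusted p = 0.0013). KCNIP4, a calcium-binding partner of the A-type channels, fell by 0.45 (standard error 0.13, adjusted p = 0.027). Its signals were low throughout, at 5.54, 4.50 and 4.59 against 6.05, 4.78 and 5.15, and without the ET-770 experiment its change was -0.42 with an adjusted p of 0.29. All 4 KCNIP genes had negative mean changes, from -0.45 to -0.15, of which only that of KCNIP4 passed the test. KCNE4, a membrane protein that damps KCNQ channels, gave 9.51, 8.45 and 9.02 against 9.85, 8.58 and 8.66, with a mean change of -0.03 (adjusted p = 0.93). Of the 16 auxiliary potassium channel subunits 2 fell and 0 rose, with 3 at an unadjusted p under 0.05.

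SCN8A, the pore of a sodium channel of neurons, was the only 1 of 12 sodium channel subunits to pass the test. The signals were 6.23, 5.54 and 5.66 with ET-770, ET-770-DR and RM, against 7.39, 6.47 and 6.04 in DMSO cells. It fell in each experiment, most with ET-770 (0.448-fold) and least with RM (0.768-fold), and its mean change was -0.82 (standard error 0.16, adjusted p = 0.0046). It is read by 2 probes, whose mean changes were -0.71 and -0.94. The other 11 sodium channel subunits had mean changes within -0.13 and 0.10. SCN4A, the pore of skeletal muscle, had 7.31, 6.40 and 6.78 against 7.29, 6.36 and 6.55, and SCN4B, a beta subunit, had 7.17, 6.22 and 6.59 against 7.26, 6.64 and 6.40.

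**Figure D2:**
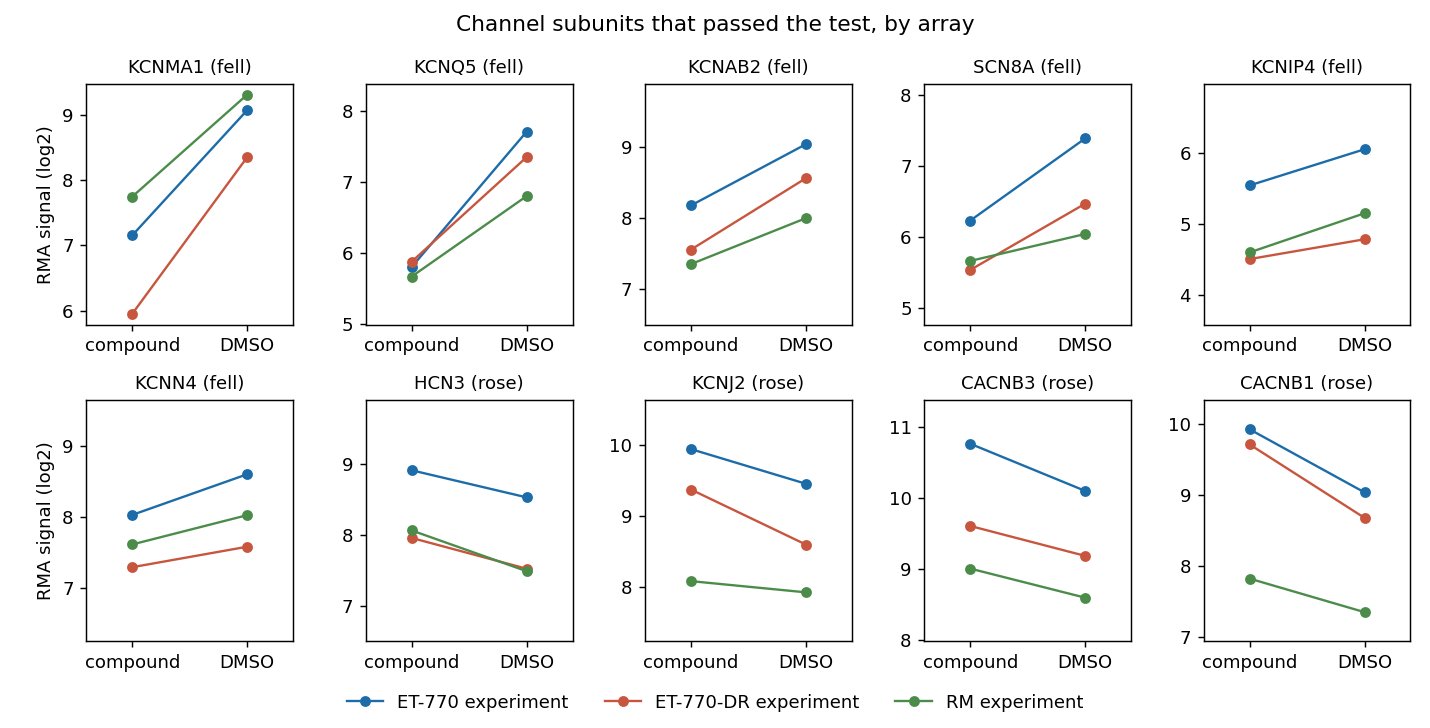
RMA signal (y axis, log2) of the 10 subunits that passed the test, on the compound array (left) and the DMSO array (right) of each experiment, where each line joins the 2 arrays of 1 experiment and each panel has its own axis. The 6 subunits that fell slope upward to DMSO and the 4 that rose slope downward in all 3 experiments, while the lines of the experiments lie apart.

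The rises were smaller than the largest falls. CACNB1, a cytosolic beta subunit that carries high-voltage-activated calcium channels to the membrane, was at 9.93, 9.72 and 7.82 with ET-770, ET-770-DR and RM, against 9.04, 8.68 and 7.35 in DMSO cells. All compound arrays exceeded the DMSO array of the same experiment, but the array of RM lay below the DMSO arrays of the other experiments. The fold changes were 1.85, 2.05 and 1.39, and the gene rose by 0.80 on the log2 scale (moderated standard error 0.14, limma adjusted p = 0.0029). CACNB3, of the same family, was at 10.77, 9.61 and 9.01, against 10.10, 9.19 and 8.60, and rose by 0.50 (standard error 0.12, adjusted p = 0.016; adjusted p = 0.29 without the ET-770 experiment). CACNB2, the third measured beta subunit, had a mean DMSO signal of 5.35 and a mean change of -0.08. None of the 10 calcium pore subunits passed the test in limma, and none had an unadjusted p under 0.05. Their mean changes lay between -0.11 and -0.01 at mean DMSO signals of 5.54 to 6.93. CACNA1H, a pore of the low-voltage-activated type, had 7.45, 6.45 and 6.87 against 7.44, 6.61 and 6.75. CACNG8, which accompanies AMPA receptors, had 8.77, 8.06 and 8.12 against 8.68, 8.19 and 7.97.

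KCNJ2, a strong inward rectifier that holds the resting potential, was at 9.95, 9.38 and 8.08 with the compounds, against 9.46, 8.60 and 7.93 with DMSO. The rise was 1.12-fold with RM and 1.71-fold with ET-770-DR, and the average rise of 0.47 (standard error 0.14, adjusted p = 0.040) lost its call without the ET-770 experiment (adjusted p = 0.21) and without the ET-770-DR experiment (adjusted p = 0.22). KCNJ10, the inward rectifier of astrocytes, was at 6.02, 5.27 and 5.01 against 6.41, 6.42 and 5.12, and its mean change of -0.55 did not pass (adjusted p = 0.058). It passed, as a fall, in eBayes with trend and when either the ET-770 or the RM experiment was left out. HCN3, a cation channel subunit opened by hyperpolarization, was at 8.91, 7.96 and 8.06 against 8.53, 7.52 and 7.49. It rose by 0.46 (standard error 0.12, adjusted p = 0.021), and its call was lost without the ET-770 experiment (adjusted p = 0.15) and without the ET-770-DR experiment (adjusted p = 0.052). HCN2 and HCN4 each changed by -0.02.

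The remaining subunits did not pass the test. None of the 15 tandem pore-domain (KCNK) potassium channel genes passed the test or had an unadjusted p under 0.05 in limma, and their mean changes ranged from -0.12 to 0.28. KCNK15 was at 8.80, 7.93 and 8.12 against 8.61, 7.97 and 7.97. Among the 35 voltage-gated potassium pores KCNQ5, described above, was the only one to pass, and 3 had an unadjusted p under 0.05. KCNS3, a silent subunit that modifies other voltage-gated pores, was at 8.03, 7.21 and 7.72 against 8.20, 7.31 and 8.55, which is 0.563-fold with RM and 0.891-fold and 0.932-fold with ET-770 and ET-770-DR (mean change -0.37, adjusted p = 0.14). Over all 125 subunits, 118 had a mean change of less than 0.5 in size, as did 14797 of the 18417 genes. With a mean DMSO signal under 8, this held for 111 of 115 subunits and 9262 of 10417 genes. The median change of the 125 subunits was -0.02, where that of all genes was 0.03. After quantile normalization or with each array centred on its median it was 0.02. Without the RM experiment it was -0.12, without the ET-770-DR experiment 0.08 and without the ET-770 experiment 0.01.

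**Figure D3:**
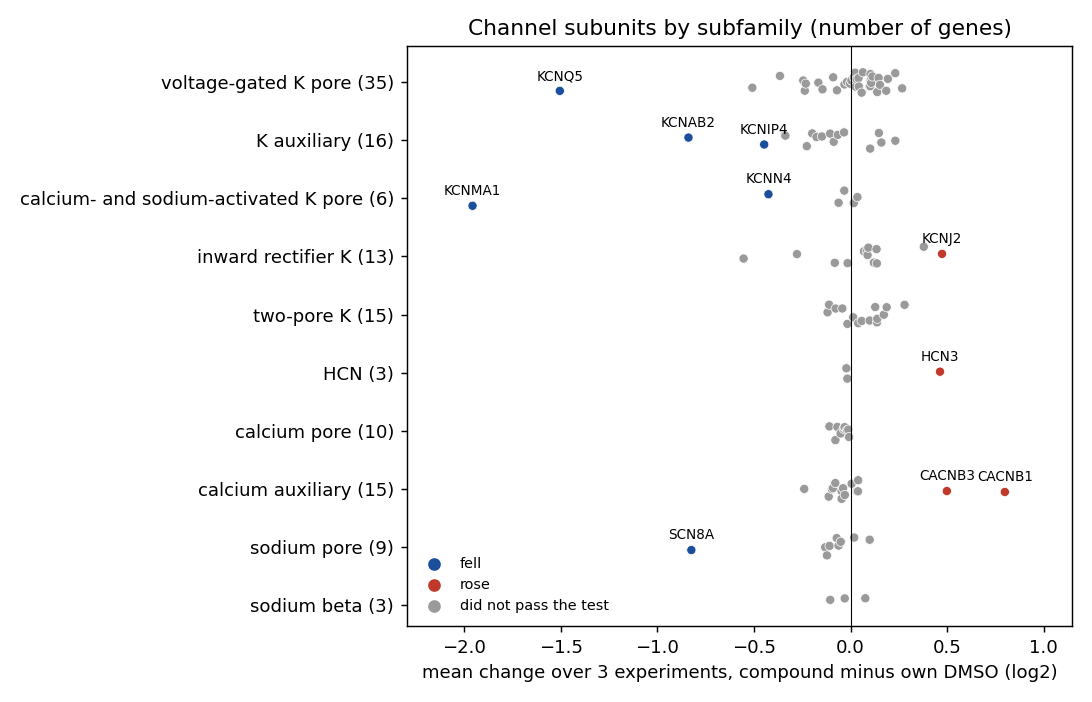
Mean log2 change over the 3 experiments (x axis) of the 125 channel subunits by subfamily, where each point is a gene, blue fell, red rose and grey did not pass the test, and the vertical position within a row has no meaning. Of the 125 points 118 lie within 0.5 of 0, and KCNMA1 and KCNQ5 lie farthest from it, at -1.96 and -1.51.

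To show the sequence upstream of some subunits that passed the test, the 250 bases before the RefSeq gene start (GRCh38.p14) are given for the largest falls, KCNMA1 and KCNQ5, and for the calcium channel beta subunits that rose. KCNAB2 and SCN8A, which changed by -0.84 and -0.82, are not shown. They run 5′ to 3′ on the strand of the gene, and capitals mark the GC box, GGGCGG, or its complement CCGCCC, whose matches may overlap. The windows are chr10:77637809-77638058 (minus strand) for KCNMA1, chr6:72621814-72622063 (plus strand) for KCNQ5, chr17:39197670-39197919 (minus strand) for CACNB1 and chr12:48814230-48814479 (plus strand) for CACNB3.
KCNMA1: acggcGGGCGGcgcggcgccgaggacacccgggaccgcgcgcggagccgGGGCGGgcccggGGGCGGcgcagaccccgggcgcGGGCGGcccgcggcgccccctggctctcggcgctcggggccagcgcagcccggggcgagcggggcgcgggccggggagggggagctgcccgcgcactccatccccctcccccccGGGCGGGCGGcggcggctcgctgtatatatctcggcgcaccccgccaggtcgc
KCNQ5: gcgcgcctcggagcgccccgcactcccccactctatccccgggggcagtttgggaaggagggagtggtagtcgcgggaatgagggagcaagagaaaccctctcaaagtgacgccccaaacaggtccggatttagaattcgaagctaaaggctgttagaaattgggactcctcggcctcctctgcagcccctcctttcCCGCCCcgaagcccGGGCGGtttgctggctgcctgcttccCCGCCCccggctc
CACNB1: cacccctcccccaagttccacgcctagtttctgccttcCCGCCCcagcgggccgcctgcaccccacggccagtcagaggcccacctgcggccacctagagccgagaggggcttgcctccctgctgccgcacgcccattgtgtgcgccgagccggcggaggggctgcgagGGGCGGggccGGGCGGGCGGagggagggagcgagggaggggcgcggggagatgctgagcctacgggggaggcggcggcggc
CACNB3: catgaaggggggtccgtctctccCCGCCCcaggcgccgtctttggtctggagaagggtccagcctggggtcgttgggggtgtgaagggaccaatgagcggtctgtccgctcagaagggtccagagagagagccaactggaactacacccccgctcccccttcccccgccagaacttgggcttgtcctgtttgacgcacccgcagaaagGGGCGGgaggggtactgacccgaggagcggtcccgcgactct
The window of KCNMA1 held 6 GC boxes and 85.6% G and C, that of KCNQ5 3 boxes and 64.0%, that of CACNB1 4 boxes and 76.4%, and that of CACNB3 2 boxes and 65.6%. In the windows shown, the falling and the rising subunits thus both had GC boxes. Among the 10 subunits that passed the test 9 held at least 1 GC box, KCNAB2 being the exception. Of the 95 subunits with a window 61.1% held one, and of 27305 RefSeq promoters 42.3% did, on either strand. The median content of G and C differed in the same order. It was 75.4% for the 10 subunits, 65.6% for the 95 and 58% for all promoters, and its part in these shares was not tested. TATAAA was found in 0 of the 10 windows and in 11.1% of all promoters, and CCAAT in 4 of the 10 and in 33%. Such matches are letters in a window and do not show a bound site.

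By compound, KCNMA1 and KCNQ5 were more than 3-fold lower with ET-770, as were 2.15% of all genes. KCNMA1 alone was so with ET-770-DR, where 2.12% of all genes were, and 0 subunits were so with RM, where 1.36% were. More than 3-fold higher were 0 subunits with any compound, and 0.233%, 0.51% and 0.0434% of all genes with ET-770, ET-770-DR and RM. With 1 array per arm these folds have no replicate check. The doses of the compounds differ, and the values stand side by side without a test between compounds. More than 2-fold lower were 3, 4 and 2 subunits with ET-770, ET-770-DR and RM, where 4.68%, 4.94% and 4.28% of all genes were. More than 2-fold higher was CACNB1 with ET-770-DR, and no subunit with the others, where 2.01%, 3.84% and 0.668% of all genes were.

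In the signals as deposited, the direction of the small changes differed by compound. Of the 125 subunits 78, 92 and 19 were lower than DMSO with ET-770, ET-770-DR and RM, with median changes of -0.05, -0.16 and 0.17. All genes had medians of 0.02, -0.03 and 0.12. Among genes with a mean DMSO signal under 8, the medians were -0.05, -0.18 and 0.18 for the 115 subunits and -0.01, -0.10 and 0.17 for all such genes, so that the dim genes as a whole moved to the same sides. Lower with both ET-770 and ET-770-DR but not with RM were 56 subunits (44.8%), where 16.8% of all genes and 27% of those under 8 were. Lower with all compounds were 13, where 20.6% of all genes and 13.3% of those under 8 were, and higher with all were 23, where 29.6% and 20.9% were. The highest changes with RM were those of KCNJ13 (0.78) and KCNS1 (0.76), whose DMSO signals in that experiment were 3.37 and 4.76.

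**Figure D4:**
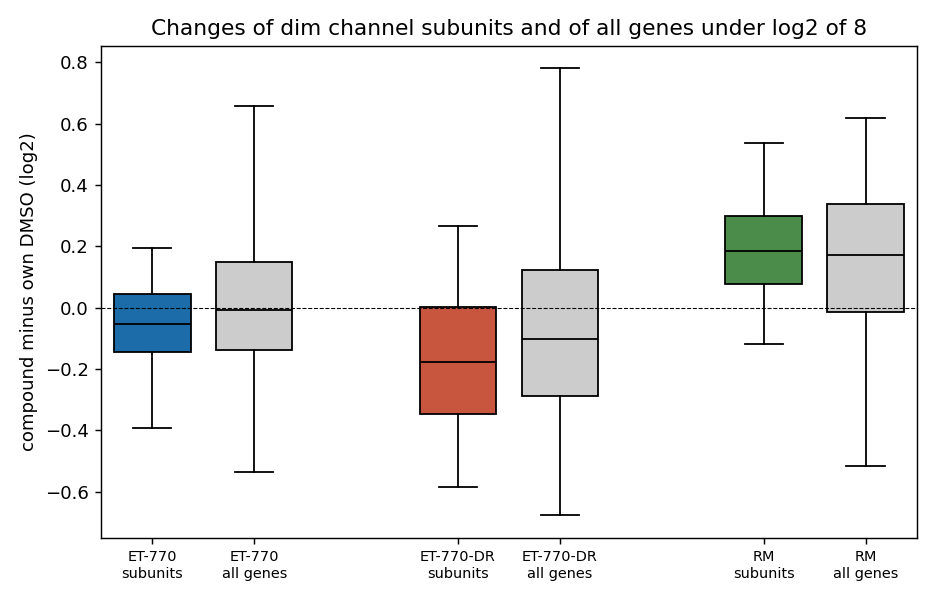
Compound minus own DMSO array (y axis, log2) with each compound, for the 115 subunits with a mean DMSO signal under 8 (coloured) and for all genes under 8 (grey); boxes span the quartiles with the median as a line, and whiskers reach the 5th and 95th percentiles. The subunits' medians are -0.05, -0.18 and 0.18, beside -0.01, -0.10 and 0.17 for all such genes.

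Genes that work with these channels were described from a list of pumps, exchangers, store-operated calcium genes, anchors and accessory proteins. Of 45 measured genes 11 fell and 2 rose, or 28.9% in either direction. Of all genes 11.2% fell and 13.1% rose, or 24.3% in either direction. The genes with the largest falls were CASK, DLG1 and ANK3. CASK, which links membrane proteins to the cytoskeleton, was at 6.85, 6.11 and 7.37 with ET-770, ET-770-DR and RM, against 10.02, 9.52 and 9.46 with DMSO, with no overlap, and fell by 2.89 (standard error 0.22, n = 3 pairs). DLG1, a scaffold that binds potassium channels, fell by 1.88 (standard error 0.14), while its relatives DLG2, DLG3 and DLG4 changed by -0.08, 0.26 and 0.17 and did not pass. ANK3, the ankyrin that anchors sodium channels in neurons, fell by 1.34 (standard error 0.21, adjusted p = 0.0014, limma). Of 21 anchors and accessory proteins 7 fell and 1 rose, of 16 pumps and exchangers 3 fell and 0 rose with 4 at an unadjusted p under 0.05, and of 8 store calcium genes 1 fell and 1 rose. The plasma membrane calcium pump ATP2B4 averaged 9.39 with the compounds and 10.66 with DMSO and fell by 1.27 (standard error 0.14). The rises were those of GEM, a small GTPase that binds the calcium channel beta subunits (10.79 with the compounds and 10.15 with DMSO, mean change 0.64, standard error 0.19, adjusted p = 0.032), and ORAI2, a pore of store-operated calcium entry (9.99 with the compounds and 9.51 with DMSO, mean change 0.47, standard error 0.13, adjusted p = 0.024). For GEM the changes were 1.07, 0.81 and 0.04 with ET-770, ET-770-DR and RM.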

How the data were processed

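The authors ran RMA in Affymetrix Expression Console and deposited the resulting signals, on a log2 scale, for 33297 probes on 6 arrays. Versions are not given in the sources used here, and whether all arrays were normalized together was not established. Only the 19460 probes with 1 gene symbol were used. Their log2 signals were averaged where a gene had several, for 18417 genes; 1754 probes with several symbols and 12083 with none were left out. The gene table of GRCh38.p14 held all 125 subunits under the same symbols. A further 14 symbols of that table that fit the rule are not analysed here.

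A linear model with terms for treatment and experiment gave the shared response (limma 3.58.1, R 4.3.3; eBayes without trend). Benjamini-Hochberg adjustment ran over all genes, with a threshold of 0.05. The labels name the compound that each DMSO array controls. After removal of the gene means of each arm every compound array correlated with its own DMSO array at 0.69 to 0.83 and with others at 0.24 at most. The removal makes the deviations within an arm cancel out, so that the low values with the others are partly built in. The 3-fold limit, either way, is that of the methods of the study. The number of arrays limits the precision. The p-values and standard errors rest on the spread between these 3 pairs, moderated by eBayes with the spread of all genes. They can thus be smaller or larger than the 3 changes of a gene alone would give. For KCNMA1 the SD of the 3 changes was 0.42 and the moderated standard error 0.16, and for GEM they were 0.53 and 0.19.

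The subunits and lists were chosen with earlier results of these data known. Named subunits are those that passed the test, those past 3-fold with a compound and the brightest of each subfamily; from the partner list, the 3 largest calls each way. KCNK12, KCNIP3, KCNMB4, KCNJ10, KCNJ11, KCNH5, KCNMB3, CACNG8, KCNJ13, KCNS1, ATP2B4 and the relatives beside a named gene were named after their values were seen. The fit was tested on simulated data. Tables and plots were made in Python 3.11.15 (numpy 2.4.6, pandas 2.3.3, matplotlib 3.10.9).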

Additional observations from a re-analysis of the deposited data

How the results depend on the processing

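The falls of KCNMA1 and KCNQ5 passed the test under all 10 alternatives that were tried for them, and no subunit that passed changed direction under any. Quantile normalization, centring of each array, the brightest probe of each gene and eBayes with trend kept all 10 calls, trend adding the fall of KCNJ10, and KCNIP4 was not tested once genes with a mean under 6 were left out (5 fell and 4 rose). Without the experiment as a block (no replicate block, the pairing left out), 2 subunits fell and 0 rose (0 at an unadjusted p under 0.05, limma), and of the 10 brighter subunits 1 fell and 0 rose. Among all genes 369 then fell and 26 rose, against 2065 and 2406 with the block, so that calls were lost over all genes as well. The block compares each compound with its own DMSO array. With every probe tested on its own, over 33297 probes, 3 fell and 1 rose. With 1 experiment left out, 5 to 15 subunits fell and 1 to 4 rose, and of the brighter ones 2 to 3 fell and 1 to 3 rose. Of all genes 1505 to 2635 then fell and 1200 to 3506 rose, the most in both directions without the RM experiment. The 15 came without the RM experiment, where the 6 falling subunits were among them, and the lowest values without the ET-770 experiment, which kept 4 of the 6 falls and 1 of the 4 rises, that of CACNB1. With a limit of 9 in place of 8 for the DMSO signal, 0 of 2 subunits fell (0 at an unadjusted p under 0.05) and 1 rose, and with the mean of all 6 arrays as the measure 1 fell and 4 rose, KCNMA1 and KCNN4 being below the limit by that measure. With a limit of 7, 4 fell and 4 rose. The shares of all genes past these other limits were not counted. Set against the average of all 3 DMSO arrays, 1 subunit was more than 3-fold lower with ET-770 and 1 with RM. At 2-fold, 4 were lower and 1 higher with ET-770-DR, and 2 lower with RM. The cause of these shifts was not tested. Dim signals limit what could be seen for most subunits.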

Other observations

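Some subunits came near the threshold. KCNH5, a voltage-gated potassium pore of the EAG family, was at 5.45, 4.79 and 4.23 with ET-770, ET-770-DR and RM, against 6.13, 5.67 and 4.21 with DMSO, and its mean change of -0.51 had an adjusted p of 0.061 (limma, n = 3 pairs). KCNJ11, the pore of the ATP-sensitive potassium channel, was at 6.55, 6.06 and 6.35 against 6.49, 5.48 and 5.85 (mean change 0.38, adjusted p = 0.082). In the same order of compounds the changes of KCNH5 were -0.67, -0.87 and 0.02, and the difference between compounds was not tested.

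KCNMB3, a further beta subunit of the BK channel, is read by 4 probes. Their mean changes were 0.34, 0.25, 0.21 and 0.13, and the average of the probes did not pass the test.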
